A study of Mus musculus with 16 samples.

Results

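The 8 libraries of mouse induced pluripotent stem cells (iPSC) in this series, of 16 libraries in all, were compared by whether the cells had assembled with trophectoderm stem cells (TSC) or had grown alone. The members were chosen by their labels. They were 2 libraries of the iPSC part of assembled structures and 2 of the same part after BMP4, against 2 of iPSC cultured alone and 2 of those with BMP4. Assembly was thus compared 4 against 4 with BMP4 as a covariate. Every library was made by the Smart-seq2 protocol from 1 picked colony or colony part, and the iPSC carried GFP while the TSC carried RFP. All cultures, lone ones included, sat on 5% Matrigel in a serum medium with N2 and B27 supplements, 12.5 ng/ml of FGF4 and 500 ng/ml of heparin, and were collected on day 3. The BMP4 groups received BMP4 for the last 24 hours, whose dose is not stated in these sources. Assembled structures were chosen for attached green and red colonies, and their parts were separated by hand, so that contact with TSC, growth in a mixed culture and the separation of an assembled part cannot be told apart. Whether replicate libraries stem from different cultures is not stated, and the p-values below therefore measure only the spread between these libraries, which may be technical.

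When pluripotent and trophoblast stem cells assemble in culture, the pluripotent part is used as a model of the epiblast, the tissue that forms the embryo proper, beside the extraembryonic ectoderm. In the embryo this neighbour supplies BMP4, which together with Wnt and Nodal signals starts the primitive streak, marked by the T-box factors T and Eomes and by Mixl1. Epiblast cells of this stage lean on glycolysis, lose the naive factors and raise Fgf5, Otx2 and the DNA methyltransferase Dnmt3b while they keep Pou5f1.

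The values are FPKM as deposited (fragments per kilobase of transcript, scaled to the mapped fragments of the library), with unknown depth. Differences are given on the scale log2(FPKM + 1) as assembled minus lone ± SE from limma, with BMP4 in the fit, and levels as mean FPKM ± SD over the 4 libraries of an arm. Between the replicates of a group, Pearson's r over the genes tested was 0.935 in the assembled part with BMP4, 0.978 in lone iPSC and between these in the other groups. Markers of pluripotent cells summed to 1010 to 3921 FPKM in these 8 libraries, with 7 or 8 of 8 markers at 1 FPKM or more. In the libraries of TSC origin they summed to 201 to 1165 FPKM, with 4 to 8 markers, so that the ranges overlapped. Utf1 alone stood at 148 to 724 FPKM there, against 97.6 to 541 in the libraries of iPSC origin. Pou5f1 did not overlap, at 49.5 to 326 FPKM in iPSC origin and at most 13.2 in TSC origin. Endoderm markers (10) summed to at most 5.61 FPKM, fibroblast markers (10) to at most 10.2 and early neural markers (5 measured) to at most 1.15. The 16 trophoblast markers summed to 131 to 835 FPKM in the lone libraries and 193 to 831 in the assembled ones, against 828 to 8590 in the libraries of TSC origin. Replicate 2 of the assembled part with BMP4 stood apart for the trophoblast factor Elf5, at 50.4 FPKM, where the other 7 libraries had at most 0.413. Its Igf2 stood at 214 FPKM, where they had at most 8.004. Trophoblast markers were not confined to it. Replicate 2 of lone iPSC with BMP4 had the highest sum of the 8 libraries, 835 FPKM against 831 in that assembled library. Each had 12 of the 16 markers at 1 FPKM or more. Most of the sum in the lone library came from the keratins Krt8 (320 FPKM) and Krt18 (415), which stood at 107 and 240 in that assembled library. The lone library was the highest of the 8 for Krt18, Ascl2 (14.3), Tfap2c (13.8), Plac1 (7.03) and Cdx2 (6.16). Besides Elf5 and Igf2, the assembled library was the highest for Hand1 (149 against 16.8 in the lone library), Esx1 (21.8 against 19.4), Eomes (18.1 against 3.04) and Krt7 (14.8 against 4.95).

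Assembly went with a difference in 4353 of 11207 genes tested (38.8%; limma, Benjamini-Hochberg adjusted p under 0.05), of which 1129 were higher (10.1% of those tested) and 3224 lower (28.8%) in the assembled part. More than 2-fold differences were found in 258 of the higher and 1095 of the lower genes. Without overlap between the 4 assembled and the 4 lone libraries, 983 genes were higher (8.77%) and 2897 lower (25.8%). In these bulk libraries, fewer cells of a type and less RNA per cell cannot be told apart. The excess of lower calls depended on the scaling. The median of all genes was -0.24 as deposited and -0.014 after quantile normalization, where 1842 genes were higher and 1904 lower. After upper quartile rescaling the median was -0.04 with 1632 higher and 1715 lower, and with predicted, microRNA and snoRNA names left out it was -0.34 with 804 higher and 3722 lower. The gene groups below are therefore read against the background of 10.1% higher and 28.8% lower and against the median of -0.24. Cytosolic ribosomal protein genes held 28.2% to 32.4% of the FPKM total in the assembled libraries and 23.1% to 25.4% in the lone ones, and genes encoded in mitochondria 0.684% to 2.07% against 1.77% to 3.60%. With both kinds of genes left out and the libraries rescaled, the median was -0.28, with 923 genes higher and 3275 lower.

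The differences without and with BMP4, which share no library, had the same sign in 78.7% of the 11207 genes. Across genes, which are not independent replicates, they correlated with Pearson's r = 0.634 and Spearman's rho = 0.705. The 4 untreated libraries alone gave 3445 calls and the 4 BMP4 libraries alone 2, Gm15536 and Sco2, which were called in both. BMP4 itself, as the second term of the same fit, was called higher in 6 genes and lower in 8, with 1577 at an unadjusted p under 0.05.

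**Figure D1:**
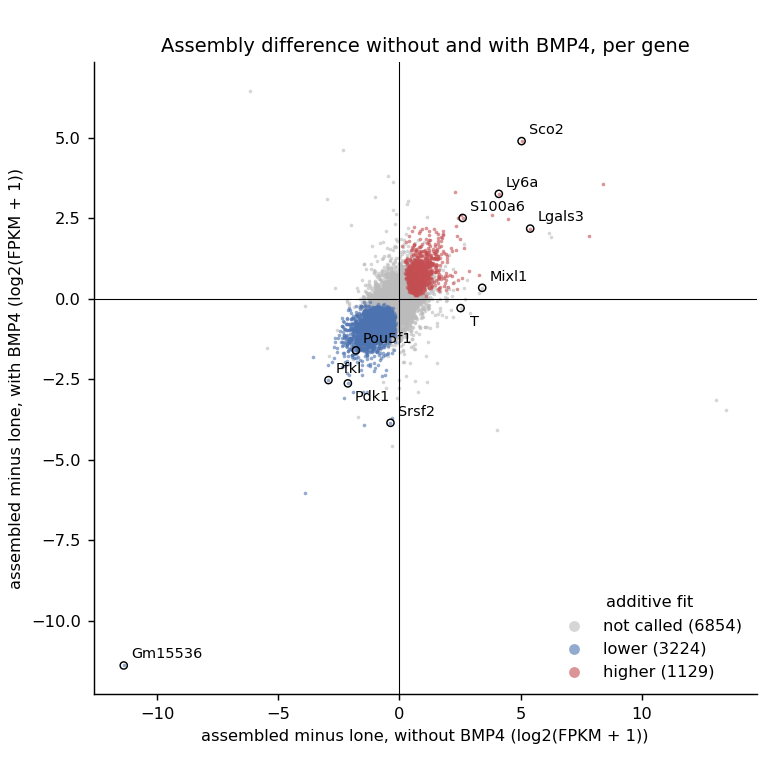
Each point is 1 of the 11207 genes tested, placed by its difference between assembled and lone iPSC without BMP4 (x axis) and with BMP4 (y axis), both as log2(FPKM + 1), and coloured by the call of the fit over all 8 libraries (1129 higher, 3224 lower). Most coloured genes lie in the lower left or upper right quadrant, while T and Mixl1 lie to the right near the horizontal line, and Gm15536 stands far from the rest because it is listed at 0 in all 4 assembled libraries.

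Several small surface and calcium-binding proteins were among the genes that were higher in the assembled part. Ly6a, known as Sca-1, a membrane-anchored surface protein of many progenitor cells, stood at 6.27 and 1.84 FPKM in lone iPSC and 6.30 and 36.5 in lone iPSC with BMP4. Ly6a had 75.4 and 78.9 FPKM in the assembled part and 277 and 88.98 in the assembled part with BMP4. All 4 assembled libraries lay above all 4 lone ones, with the widest spread under BMP4, and the difference was 3.68 ± 0.55 (limma adjusted p = 0.00144). Its relatives Ly6c1 (38.3 ± 38.8 FPKM against 3.03 ± 3.51, 3.22 ± 0.63) and Ly6c2 (14.4 ± 15.3 FPKM against 1.06 ± 0.966, 2.57 ± 0.51) rose as well (limma adjusted p = 0.00436 and 0.00449), although reads shared among these near-identical genes may have been split. S100a6, a small calcium-binding protein, had 165, 194, 239 and 203 FPKM in the 4 assembled libraries and 42.2, 19.03, 33.4 and 42.97 in the 4 lone ones. The arms did not overlap, and the level rose from 34.4 ± 11.1 to 200.0 ± 30.6 FPKM (2.56 ± 0.22, limma adjusted p = 0.000383). The galactose-binding lectin Lgals1 stood at 792 ± 244 FPKM against 204 ± 54.6 (1.94 ± 0.21, limma adjusted p = 0.000561). In a list of 12 tested genes of the Ly6 and S100 families, put together after these values were seen, 9 were higher and 0 lower.

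Other genes with large rises did not form a single group. The transcriptional repressor Zfp703 was at 2.39 to 20.4 FPKM in the assembled libraries and 0.337 to 1.24 in the lone ones (2.30 ± 0.48, limma adjusted p = 0.00560). Htra1, a secreted serine protease, stood at 13.9 ± 9.91 FPKM against 2.66 ± 1.34 (1.91 ± 0.31), and Rasa1, which switches off Ras, at 22.5 ± 5.58 FPKM against 5.51 ± 0.847 (1.83 ± 0.19). Wdr26, a subunit of a ubiquitin ligase, varied little within each arm, at 20.2 ± 0.995 FPKM against 4.96 ± 0.605 (1.83 ± 0.15, limma adjusted p = 0.000326). The Sin3-associated protein Sap25 (1.90 ± 0.31) and the antisense transcript Rab26os (1.82 ± 0.17) were, with Sco2, the last of the 12 largest by the naming rule. For Rab26os, reads of the opposite strand could not be told apart, because how strands were handled is not stated.

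Of these 12, Sco2 had the largest difference. This copper chaperone in the assembly of cytochrome c oxidase stood at 26.1, 39.1, 30.96 and 26.7 FPKM in the assembled libraries and listed at no more than 2.48e-06 in the 4 lone ones (limma adjusted p = 1.54e-06). Values so near 0 may be failed estimates, since Sco2 overlaps other genes in the GENCODE annotation, and no fold is given. Of 17 tested assembly factors of cytochrome oxidase, 3 were higher and 2 lower, and Sco1, the paralog of Sco2, was not called (-0.35 ± 0.18). In TSC, Sco2 stood at up to 16.4 FPKM in lone libraries and 29.5 to 33.9 in assembled ones. Its lineage interaction was not called (limma adjusted p = 0.135). The opposite pattern in iPSC was found for the processed pseudogene Gm15536, listed at 0 in all assembled libraries and at 2222 to 3231 FPKM in the lone ones. In TSC, Gm15536 ranged from 0 to 1406 FPKM in lone libraries and from 0 to 1069 in assembled ones. The predicted entries Gm16005 and Gm17122 were listed under 0.01 FPKM in all lone libraries and at 1 or more in all assembled ones.

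**Figure D2:**
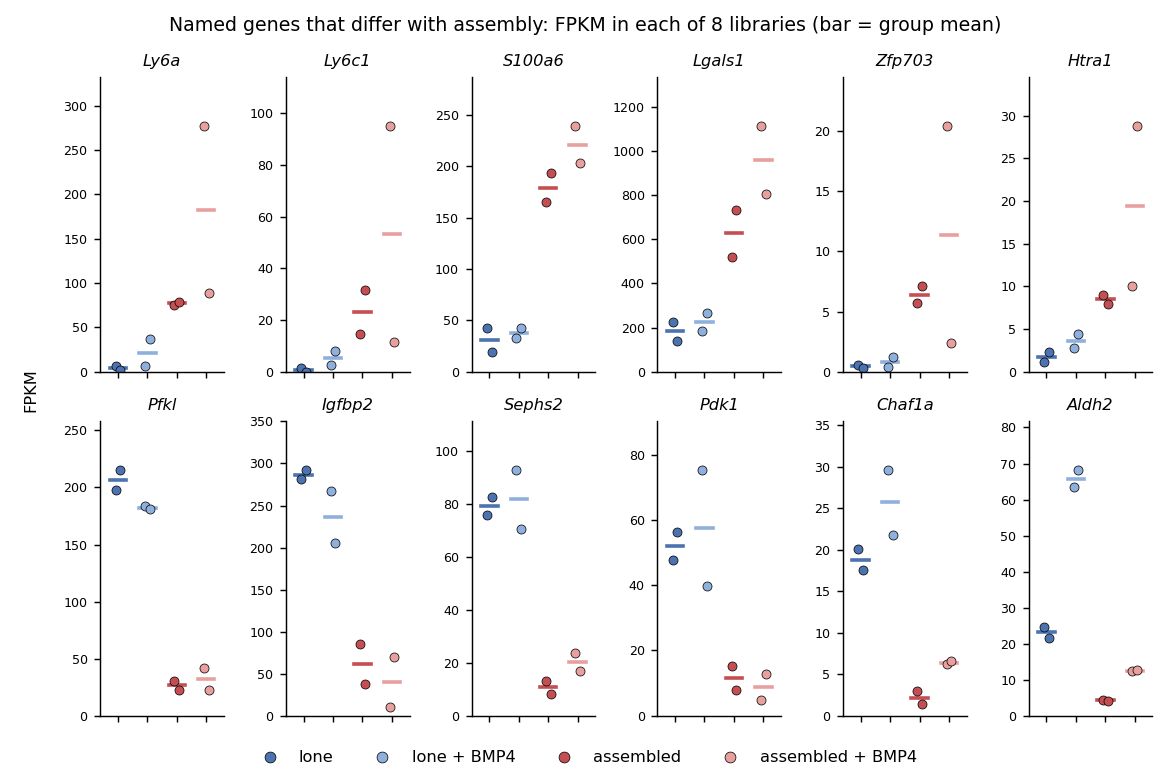
FPKM (y axis, linear, from 0) of 12 named genes in each of the 8 libraries, in columns for lone iPSC, lone with BMP4, assembled and assembled with BMP4. Points are libraries and bars are group means of 2. In every panel the 4 assembled libraries lie on one side of the 4 lone ones, while the replicates of the assembled part with BMP4 lie far apart for Ly6a, Ly6c1, Zfp703 and Htra1.

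On the lower side, the glycolytic enzyme Pfkl, the liver-type subunit of phosphofructokinase, had the largest difference among the 12 genes named for their size. It stood at 198 and 215 FPKM in lone iPSC and 183 and 181 in lone iPSC with BMP4. Pfkl had 30.6 and 22.4 FPKM in the assembled part and 41.6 and 22.7 in the assembled part with BMP4. The 2 arms did not overlap, and the mean was 29.3 ± 9.04 FPKM against 194 ± 15.9 (-2.73 ± 0.20, limma adjusted p = 0.000298). Igfbp2, a secreted binding protein of insulin-like growth factors, was at 50.7 ± 33.5 FPKM against 262 ± 38.9 (-2.70 ± 0.51). The selenophosphate synthetase Sephs2 fell to 15.5 ± 6.38 FPKM from 80.4 ± 9.56 (-2.38 ± 0.23, limma adjusted p = 0.000474), and Chaf1a, which places histones on newly copied DNA, had 2.94, 1.35, 6.18 and 6.61 FPKM in the 4 assembled libraries and 20.05, 17.6, 29.6 and 21.8 in the 4 lone ones (-2.27 ± 0.24). Aldh2, the mitochondrial aldehyde dehydrogenase, was lower by about the same amount without BMP4 (-2.19) and with it (-2.30), while its level in both arms was higher under BMP4, at 24.6 and 21.7 FPKM in lone iPSC and 63.4 and 68.2 in lone iPSC with BMP4. Aldh2 had 4.45 and 4.15 FPKM in the assembled part and 12.4 and 12.6 in the assembled part with BMP4. The guidance receptor Epha1 (-2.26 ± 0.36), the adaptor Dab1 (-2.16 ± 0.30), the nucleolar proteins Ppan (-2.12 ± 0.24) and Lyar (-2.11 ± 0.24), the membrane-remodelling protein Chmp7 (-2.11 ± 0.29) and the mitochondrially encoded oxidase subunit mt-Co1 (-2.51 ± 0.50) fell too, with no overlap between arms.

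Glycolysis genes were lower as a group. Of 23 tested members, 14 fell and 2 rose, with a median of -0.78 beside -0.24 for all genes, and after quantile normalization 13 fell and 2 rose. Pyruvate kinase, Pkm, stood at 712, 544, 755 and 620.2 FPKM in the 4 assembled libraries and 2402, 2267, 1819.7 and 1821 in the 4 lone ones, with no overlap (-1.66 ± 0.14, limma adjusted p = 0.000374). Lactate dehydrogenase A, Ldha, had 3911 and 3173 FPKM in lone iPSC and 2595 and 2684 in lone iPSC with BMP4. Ldha had 1433 and 1318 FPKM in the assembled part and 1035 and 966 in the assembled part with BMP4. Its lowest lone library lay well above its highest assembled one (-1.38 ± 0.10, limma adjusted p = 0.000325). The lactate exporter Slc16a3 (-1.35 ± 0.21), the muscle-type phosphofructokinase Pfkm (-1.10 ± 0.16), enolase Eno1 (-0.99 ± 0.10), aldolase Aldoa (-0.94 ± 0.11), Pgam1 (-0.94 ± 0.11), Gpi1 (-0.92 ± 0.11) and Pgk1 (-0.69 ± 0.14) fell with them. The main glucose transporter Slc2a1 was at 170.4 ± 58.9 FPKM against 177 ± 43.7 and was not called (-0.08 ± 0.17, limma adjusted p = 0.741). Hexokinase Hk2, which commits glucose to the cell, went the other way, with 33.5, 29.2, 25.3 and 24.8 FPKM in the 4 assembled libraries and 14.6, 11.2, 5.70 and 4.42 in the 4 lone ones (1.67 ± 0.21, limma adjusted p = 0.000807), and so did Gapdh, at 4118 ± 997 FPKM against 2652 ± 438 (0.62 ± 0.10, limma adjusted p = 0.00226). Gapdh is often used as a reference gene, and its rise kept its direction under the 3 other scalings (0.35 to 0.85).

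Targets of hypoxia-inducible factor overlap with glycolysis and were listed apart from it. Of 17 tested, 8 fell and 1 rose (median -0.66; 7 fell and 3 rose after quantile normalization, and 8 fell and 3 rose without replicate 2 of the assembled part with BMP4). Pdk1, the kinase that closes the entry of pyruvate into mitochondria, stood at 47.6 and 56.4 FPKM in lone iPSC and 75.3 and 39.6 in lone iPSC with BMP4. Pdk1 had 15.2 and 7.98 FPKM in the assembled part and 4.89 and 12.8 in the assembled part with BMP4. Its highest assembled library lay below its lowest lone one (-2.38 ± 0.32, limma adjusted p = 0.00103). The mTOR inhibitor Ddit4 (-1.48 ± 0.35), the oxygen sensor Egln3 (-1.22 ± 0.22), the collagen hydroxylases P4ha2 (-1.17 ± 0.25), P4ha1 (-0.93 ± 0.19) and Plod2 (-0.97 ± 0.18) and the oxidoreductase Ero1l (-0.87 ± 0.14) fell. The lipid droplet protein Hilpda was the 1 that rose (0.68 ± 0.20, limma adjusted p = 0.0232), a call lost in 4 of 8 fits without 1 library (limma adjusted p of up to 0.0785), and the mitophagy receptor Bnip3 (-0.66 ± 0.35) and Ndrg1 (-0.44 ± 0.30) were not called.

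**Figure D3:**
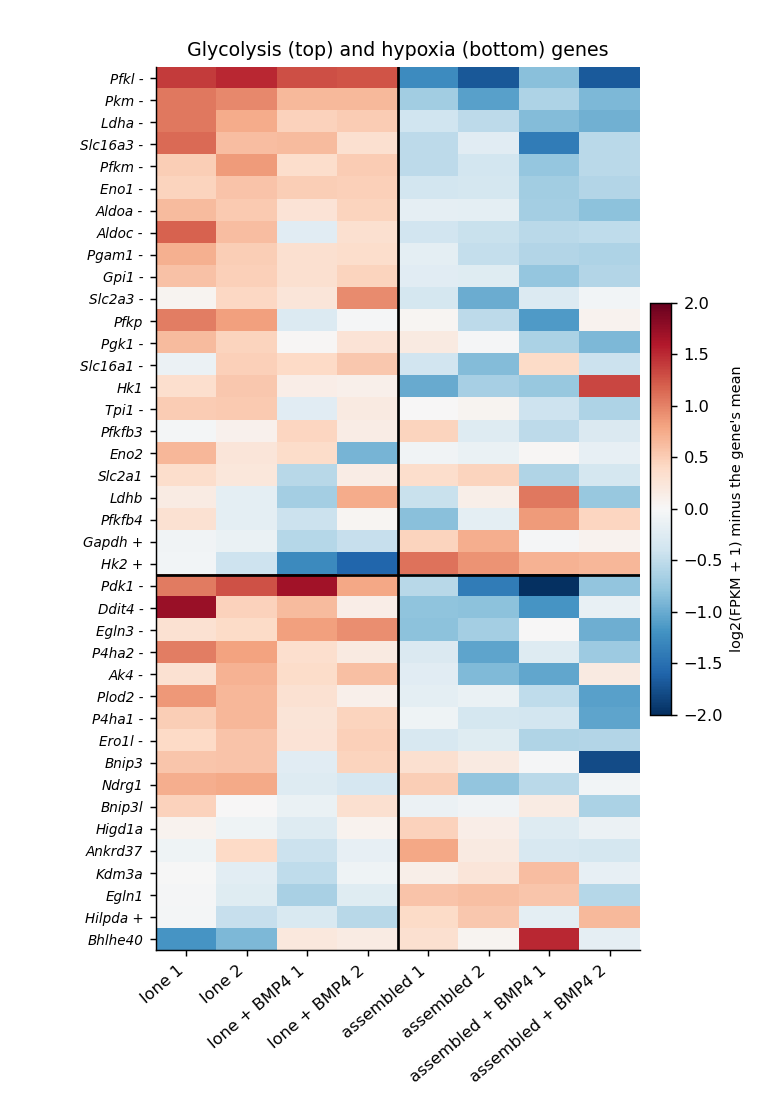
Glycolysis genes (above the horizontal line, 23) and hypoxia targets (below it, 17) in the 8 libraries, lone on the left and assembled on the right of the vertical line. Colour gives log2(FPKM + 1) minus the mean of the gene over the 8 libraries, and a minus or plus after a name marks a gene called lower or higher (14 and 2 in glycolysis, 8 and 1 among hypoxia targets).

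Because these genes moved together, the 250 bases before the transcript start were read for ACGTG, the core of the element that hypoxia-inducible factors bind, on either strand. A run CACGTG, the E-box of Myc-type factors, holds the motif on both strands. ACGTG occurred in the windows of 13 of 19 glycolysis or hypoxia genes that were lower and had a window (68.4%). It occurred in 712 of 2381 lower genes (29.9%), in 2107 of 8074 tested genes (26.1%) and in 18.5% of 27025 genes with a window in all. Among the lower glycolysis genes alone, 8 of 13 held it (61.5%). The hypoxia list is one of targets of this factor, so a high share there says nothing of the falls. These windows came from RefSeq on GRCm38.p6, which is not a build named for the deposited values, and were matched by symbol. Of the glycolysis genes, 2 of 7 that were not called and 1 of 2 that were higher held the motif. Among hypoxia targets with a window, it was held by 5 of 6 that were lower, 3 of 5 that were not called and the 1 that was higher. The windows of 3 lower glycolysis genes are shown 5′ to 3′ on the strand of the gene, with capitals for ACGTG or its reverse complement, because 2 of them carry the motif more than once while the gene with the largest fall carries none. Ldha is at chr7:46845554-46845803 on the plus strand with 3 marked runs, while a second RefSeq window of Ldha at chr7:46846832-46847081 has 0 and is not shown. Pgk1 is at chrX:106186850-106187099 on the plus strand with 2, and Pfkl at chr10:78009808-78010057 on the minus strand with 0.
Ldha: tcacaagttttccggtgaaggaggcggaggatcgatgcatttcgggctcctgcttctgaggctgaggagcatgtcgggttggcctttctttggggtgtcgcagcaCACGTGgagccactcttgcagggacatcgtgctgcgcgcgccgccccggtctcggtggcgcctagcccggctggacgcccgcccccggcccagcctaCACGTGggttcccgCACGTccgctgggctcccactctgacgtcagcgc
Pgk1: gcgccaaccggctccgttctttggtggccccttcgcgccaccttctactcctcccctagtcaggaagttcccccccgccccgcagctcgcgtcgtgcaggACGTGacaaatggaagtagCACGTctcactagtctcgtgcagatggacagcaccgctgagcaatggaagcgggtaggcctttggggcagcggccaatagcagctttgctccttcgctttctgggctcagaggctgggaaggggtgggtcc
Pfkl: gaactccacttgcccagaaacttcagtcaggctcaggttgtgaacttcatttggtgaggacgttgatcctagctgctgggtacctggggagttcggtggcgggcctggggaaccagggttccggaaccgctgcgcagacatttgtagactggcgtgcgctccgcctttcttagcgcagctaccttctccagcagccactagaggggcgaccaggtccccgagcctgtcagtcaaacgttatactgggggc
A match is a description of letters in the window and says nothing of binding. Ldha, with 3 runs, differed by -1.38, Pgk1, with 2, by -0.69 and Pfkl, with 0, by -2.73.

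The mitochondrial genes split. Of 44 tested nuclear-encoded subunits of oxidative phosphorylation, 21 rose and 8 fell (median 0.31; 17 and 7 after quantile normalization). The 8 that fell became 5 without either replicate of lone iPSC or without replicate 2 of lone iPSC with BMP4. Small subunits of the cytochrome complexes such as Cox7a2 (0.96 ± 0.20) and Uqcrb (0.86 ± 0.13) were among those that rose. Ndufa4 stood at 1919 ± 189 FPKM against 1000.2 ± 137 (0.94 ± 0.13, limma adjusted p = 0.00111). Among those that fell were Ndufv1, the NADH-binding subunit of the first complex, at 52.2 ± 9.89 FPKM against 98.7 ± 9.72 (-0.92 ± 0.13, limma adjusted p = 0.00103), and Atp5a1, the alpha subunit of ATP synthase (-0.91 ± 0.10). The longest annotated transcripts of the 21 that rose had a median length of 857 bases, and those of the 8 that fell 2159. Over all genes tested the medians were 2492 bases for the higher, 3144 for the lower and 2916 for the genes not called, and Spearman's rho between length and difference was -0.07. The part of length in the split was not tested. All 15 genes encoded in mitochondria, listed after their values were seen, had a negative difference, and 3 were called lower (1 without either replicate of lone iPSC, 8 without replicate 1 of lone iPSC with BMP4 and 4 to 6 without 1 assembled library), mt-Co1 with 586, 113, 167 and 489 FPKM in the 4 assembled libraries and 1776, 2281, 1001 and 1425 in the 4 lone ones (limma adjusted p = 0.00488). In the citric acid cycle and its entry, 6 of 19 fell and 2 rose, a share near the background for the falls. Dlat (-1.03 ± 0.13) and Pdha1 (-0.72 ± 0.15), parts of pyruvate dehydrogenase, fell, and Mpc1, a subunit of the carrier that brings pyruvate into mitochondria, rose from 42.4 ± 16.95 to 112 ± 35.6 FPKM (1.40 ± 0.20, limma adjusted p = 0.00122).

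The products and the makers of ribosomes moved in opposite directions on the deposited scale. The 2 lists also differed in the length of their longest annotated transcripts. The median was 1059 bases for the 23 ribosomal protein genes that rose and 1220 for the 4 that fell. It was 3420 bases for the 44 ribosome biogenesis genes that fell and 2746 for the 28 not called. The part of length in this contrast was not tested. Of 40 tested cytosolic ribosomal protein genes, 23 rose and 4 fell (median 0.49). Rpl23, of the large subunit, stood at 2784, 3284, 2231 and 2978 FPKM in the 4 assembled libraries and 1669, 1422, 1423 and 1451 in the 4 lone ones, and its rise (0.91 ± 0.13, limma adjusted p = 0.00108) kept its call under the 3 other scalings. Rps9, of the small subunit, was among the 4 that fell (-0.61 ± 0.10), but not after upper quartile rescaling. Quantile normalization left 12 higher and 8 lower with a median of 0.11, and upper quartile rescaling gave 27 and 0. Many of these genes have processed pseudogenes that can take some of their reads. Ribosome biogenesis genes, a list drawn up after the values were seen, showed 44 of 73 lower and 1 higher (median -0.78; 37 lower and 2 higher after quantile normalization). They covered the polymerase of ribosomal RNA (Polr1b, -1.45 ± 0.23), its initiation factor Rrn3 (-1.53 ± 0.15), processing factors such as Ppan, at 13.8 to 36.9 FPKM in the assembled libraries and 78.7 to 109 in the lone ones, and the nucleolar protein Ncl (-1.18 ± 0.20). The 1 that rose was Nop10 (0.47 ± 0.15, limma adjusted p = 0.0373), and 7 of 8 fits without 1 library lost that call (limma adjusted p of up to 0.106).

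Replication genes were mostly on the lower side. Of 29 cell cycle and replication genes, 16 were lower and 1 higher (median -0.49; 11 and 2 after quantile normalization). The 16 became 10 without replicate 2 of lone iPSC with BMP4 and without replicate 1 of the untreated assembled part. All 6 measured subunits of the replicative helicase fell, among them Mcm3, with 37.5, 25.5, 31.8 and 42.3 FPKM in the 4 assembled libraries and 94.3, 103, 107 and 102 in the 4 lone ones. The arms were far apart relative to their spread (-1.56 ± 0.16, limma adjusted p = 0.000490). Mcm6 (-1.54 ± 0.16), Mcm2 (-1.12 ± 0.12) and the ribonucleotide reductase subunit Rrm1 (-1.16 ± 0.12) behaved alike, whereas the sliding clamp Pcna rose (0.55 ± 0.14) and the proliferation marker Mki67 was not called (0.32 ± 0.19), although quantile normalization called it higher (0.60, limma adjusted p = 0.0261). DNA mismatch and base excision repair genes, listed after the values were seen, showed 15 of 28 lower and 1 higher, the rise again being Pcna. An example is the repair scaffold Xrcc1 at 7.07 ± 2.73 FPKM against 27.4 ± 3.22 (-1.88 ± 0.25, limma adjusted p = 0.000971). Of 8 tested DNA methylation genes, 5 fell and 0 rose (median -0.79), but quantile normalization and upper quartile rescaling each left 2 lower, and without replicate 1 of lone iPSC with BMP4 there were 3. The thymine DNA glycosylase Tdg was one of the genes that fell (29.1 ± 4.82 FPKM against 76.4 ± 10.2, -1.37 ± 0.16, limma adjusted p = 0.000666).

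Protein folding and splicing genes had no member higher. Of 19 tested heat shock proteins and chaperonins, 12 were lower (median -0.58; 14 lower after quantile normalization and 7 after upper quartile rescaling). The abundant chaperone Hsp90ab1 stood at 872, 630.4, 995 and 901 FPKM in the 4 assembled libraries and 2080.3, 2057, 2345 and 2052 in the 4 lone ones (-1.35 ± 0.13, limma adjusted p = 0.000483) and the chaperonin subunit Cct6a at 152 ± 27.4 FPKM against 368 ± 32.9 (-1.29 ± 0.12). Of 12 splicing factors of the SR family, 7 were lower (7 after quantile normalization and 4 after upper quartile rescaling). Srsf4 (-1.59 ± 0.17), Srsf6 (-1.45 ± 0.14) and Srsf11 (-1.20 ± 0.18) fell, while Srsf2 was high only in the 2 lone libraries with BMP4, at 2.44 and 3.18 FPKM in lone iPSC and 65.2 and 54.3 in lone iPSC with BMP4. Srsf2 had 2.38 and 1.54 FPKM in the assembled part and 1.81 and 5.24 in the assembled part with BMP4. Its call in the fit over all 8 (-2.11 ± 0.62, limma adjusted p = 0.0251) was lost in 3 of 8 fits that left out 1 library, with a limma adjusted p of up to 0.0757.

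Pluripotency genes split between a few large falls and many small differences. The POU-domain factor Pou5f1, on which pluripotency depends, had 326 and 219 FPKM in lone iPSC and 299 and 175 in lone iPSC with BMP4. Pou5f1 had 71.5 and 80.9 FPKM in the assembled part and 49.5 and 112 in the assembled part with BMP4. The highest assembled library lay below the lowest lone one, and the mean was 78.5 ± 26.05 FPKM against 255 ± 70.2 (-1.70 ± 0.27, limma adjusted p = 0.00183). Dnmt3b, the methyltransferase of the formative epiblast, fell likewise, with 37.3 ± 16.6 FPKM against 135 ± 51.3 (-1.86 ± 0.30, limma adjusted p = 0.00192). Nanog did not follow, at 34.7, 33.4, 24.4 and 36.3 FPKM in the 4 assembled libraries and 27.5, 37.4, 34.3 and 33.03 in the 4 lone ones (-0.04 ± 0.17, limma adjusted p = 0.858), nor was Sox2 called (-0.51 ± 0.39). All 14 tested core pluripotency genes had a negative difference, 4 of them were called lower and 0 higher (28.8% of all genes were lower), and 2 were lower after quantile normalization. Of 7 tested naive genes 0 were called in either direction (limma), and 2 were lower without replicate 2 of the assembled part with BMP4. Of 16 formative and primed genes, 4 fell and 0 rose (median -0.50), which is again close to the background, and 8 fell without replicate 2 of the assembled part with BMP4. Fgf5, a secreted marker of the primed epiblast, stood at 44.3 and 45.9 FPKM in lone iPSC and 2.94 and 4.01 in lone iPSC with BMP4. Fgf5 had 13.5 and 4.55 FPKM in the assembled part and 0.593 and 0.592 in the assembled part with BMP4. It was lower in the assembled part under each condition, but its lone level under BMP4 lay below its assembled level without BMP4 (-1.92 ± 0.31, limma adjusted p = 0.00198). Tcf15, a helix-loop-helix factor of formative cells, fell (0.676 ± 0.622 FPKM against 3.85 ± 1.43, -1.57 ± 0.33). Otx2, at 4.49 ± 2.76 FPKM against 9.89 ± 6.24, was not called in the fit over all 8 libraries (-0.95 ± 0.42, limma adjusted p = 0.0986). Its mean without BMP4 was 4.37 FPKM in the assembled part and 15.2 in lone iPSC, and the untreated libraries alone called it lower (-1.60 ± 0.25, limma adjusted p = 0.00575). With BMP4 the means were 4.61 and 4.59 FPKM (-0.30). Without replicate 2 of the assembled part with BMP4, the difference of Otx2 was -1.47.

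Primitive streak genes were mostly not called. Of 16 tested, 2 rose and 2 fell, near the background for the rises. The median was 0.62 in the fit over all 8 libraries, 0.66 between the untreated groups and -0.09 between the groups with BMP4. Eomes, which specifies early mesoderm and endoderm, stood at 2.41 and 2.03 FPKM in lone iPSC and 2.85 and 3.04 in lone iPSC with BMP4. Eomes had 4.19 and 3.66 FPKM in the assembled part and 16.5 and 18.1 in the assembled part with BMP4. It was higher in the assembled part by 0.61 without and 2.22 with BMP4 (1.41 ± 0.30, limma adjusted p = 0.00653). Eomes is also a factor of trophoblast stem cells, and which cells held it was not tested. Evx1, a homeobox factor of the streak, had 0.486 and 0.502 FPKM in lone iPSC and 4.33 and 4.32 in lone iPSC with BMP4. Evx1 had 3.77 and 5.27 FPKM in the assembled part and 12.5 and 4.61 in the assembled part with BMP4 (1.29 ± 0.33, limma adjusted p = 0.0134), and it was not called when BMP4 was left out of the fit. T, or Brachyury, was at 44.6 and 39.6 FPKM in lone iPSC and 172 and 270.3 in lone iPSC with BMP4. T had 237 and 257 FPKM in the assembled part and 326 and 94.8 in the assembled part with BMP4. Without BMP4 both assembled libraries were above both lone ones (2.52), with BMP4 the 4 libraries overlapped (-0.29), and the additive difference was not called (1.12 ± 0.56, limma adjusted p = 0.145), whereas a fit of the 4 group means called it (limma adjusted p = 0.0351). Mixl1 had the same arrangement, at 22.1, 25.7, 214 and 9.40 FPKM in the 4 assembled libraries and 1.09, 1.59, 18.6 and 70.3 in the 4 lone ones (1.88 ± 0.94, limma adjusted p = 0.141). Fgf8 (0.80 ± 0.74) and the Wnt target Sp5 (0.74 ± 0.35) were not called in the fit over all 8 libraries. In the 4 untreated libraries alone, T (2.52), Mixl1 (3.42), Fgf8 (2.19) and Sp5 (1.55) were called higher (limma adjusted p = 0.000761, 0.00162, 0.00508 and 0.00423), while Eomes was not called there. In the 4 BMP4 libraries alone, which gave 2 calls in all, T (-0.29), Mixl1 (0.34), Fgf8 (-0.58) and Sp5 (-0.07) were not called. Without replicate 2 of lone iPSC with BMP4, T differed by 1.53. Replicate 2 of the assembled part with BMP4, the library with Elf5, was the lowest of the 4 assembled ones for both T and Mixl1. Without it 6 of the 16 streak genes were higher and 2 lower, and T (1.75, limma adjusted p = 0.00496), Mixl1 (3.06, limma adjusted p = 0.000941), Fgf8 (1.67, limma adjusted p = 0.0140) and Sp5 (1.06, limma adjusted p = 0.0176) were called higher.

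Signalling genes had calls in both directions. Among 14 tested BMP targets, 3 rose and 1 fell (median 0.24), and 4 rose and 0 fell without replicate 2 of the assembled part with BMP4. Id2, an inhibitor of helix-loop-helix factors, stood at 52.3 and 34.2 FPKM in lone iPSC and 142 and 224 in lone iPSC with BMP4. Id2 had 132 and 181 FPKM in the assembled part and 293 and 263 in the assembled part with BMP4. Each assembled group lay above its lone counterpart, and the BMP4-treated lone libraries lay within the range of the assembled ones (1.24 ± 0.28, limma adjusted p = 0.00764). Id1 was called in neither direction (215 ± 77.9 FPKM against 186 ± 152, 0.65 ± 0.39, limma adjusted p = 0.217), with 1.68 without BMP4 and -0.38 with it, but was called higher without replicate 2 of the assembled part with BMP4 (1.03, limma adjusted p = 0.0232). The ligand gene Bmp4 was at 1.02 and 0.925 FPKM in lone iPSC and 0.876 and 16.5 in lone iPSC with BMP4. Bmp4 had 1.55 and 1.38 FPKM in the assembled part and 90.5 and 20.5 in the assembled part with BMP4, so that its mean in the assembled arm rested on the 2 libraries with added BMP4 (1.64 ± 0.78, limma adjusted p = 0.123). The Wnt ligand Wnt8a was lower without overlap, at 3.50 ± 1.95 FPKM against 17.7 ± 9.30 (-2.05 ± 0.29, limma adjusted p = 0.00114), and 1 of 6 tested Wnt ligands was called in all. Tcf7, a nuclear effector and target of Wnt signalling, rose without overlap, at 11.7, 15.2, 14.3 and 11.8 FPKM in the 4 assembled libraries and 5.88, 5.11, 4.33 and 6.21 in the 4 lone ones (1.16 ± 0.17, limma adjusted p = 0.00143). Axin2, the common readout of the pathway, was not called (0.28 ± 0.34), and of 11 Wnt targets 2 rose and 2 fell, while quantile normalization gave 3 and 0, and 4 rose and 2 fell without replicate 2 of the assembled part with BMP4. In the Nodal pathway 1 of 10 rose and 1 fell. The Nodal antagonist Lefty1 was lower (10.9 ± 6.29 FPKM against 28.2 ± 6.77, -1.43 ± 0.37, limma adjusted p = 0.0147), a call lost in 1 of 8 fits without a library (limma adjusted p = 0.0518). Nodal itself was not called (-0.30 ± 0.13). Among 18 targets of FGF and ERK, 4 rose and 4 fell, with the early gene Egr1 at 14.3 ± 6.34 FPKM against 36.9 ± 15.9 (-1.29 ± 0.26, limma adjusted p = 0.00454) on the lower side and the feedback inhibitor Spred1 (0.85 ± 0.22) on the higher.

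**Figure D4:**
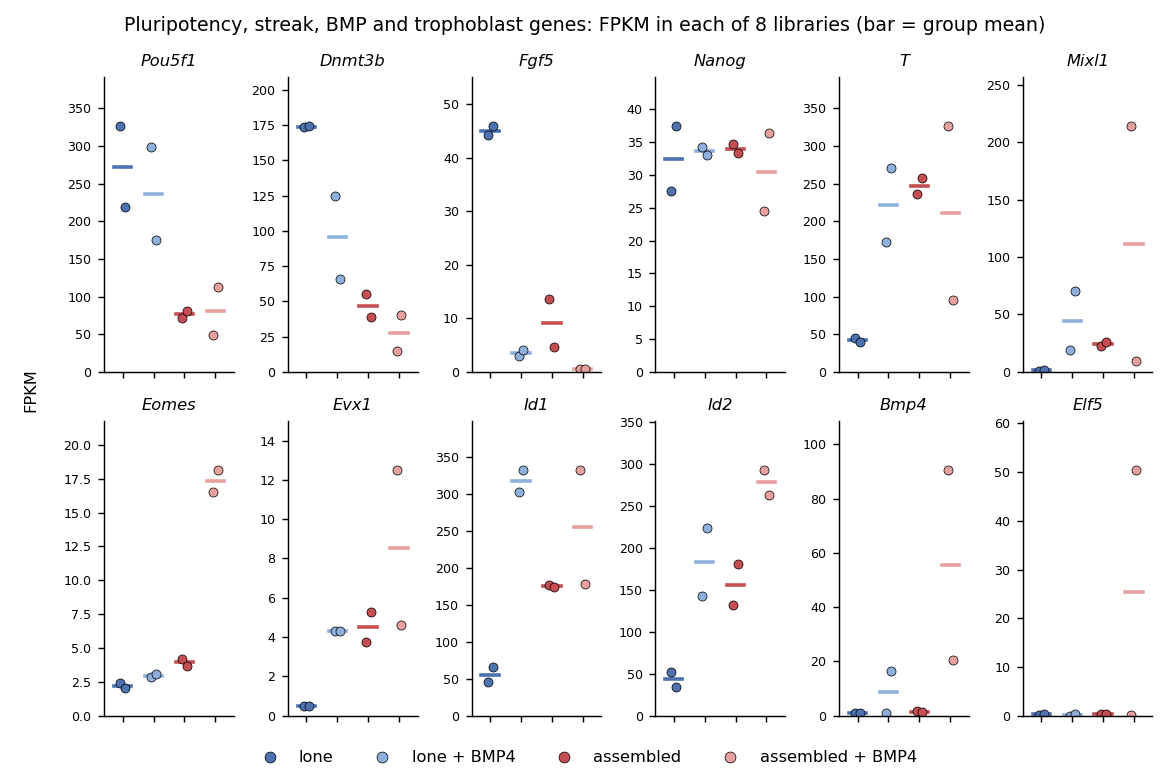
FPKM (y axis, linear, from 0) of 12 developmental genes in the 8 libraries, in columns for lone iPSC, lone with BMP4, assembled and assembled with BMP4. Points are libraries and bars are group means of 2. Pou5f1 and Dnmt3b are lower in the assembled groups, Nanog is level, T and Id1 are low only in untreated lone iPSC, and Elf5 is high in 1 library of the assembled part with BMP4.

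Epithelial adhesion genes were changed in both directions. Of 25 tested junction and keratin genes, 7 fell (28.8% of all genes were lower) and 4 rose, so that the falls were at the background share. E-cadherin, Cdh1, stood at 24.1, 21.4, 24.4 and 35.1 FPKM in the 4 assembled libraries and 58.7, 57.97, 56.5 and 54.4 in the 4 lone ones. No assembled library reached the lone range (-1.11 ± 0.16, limma adjusted p = 0.00115), although a fit over all 16 libraries lost the call (limma adjusted p = 0.0655). The adhesion molecule Epcam (117 ± 31.2 FPKM against 256 ± 22.8, -1.16 ± 0.17), the desmosomal plakophilin Pkp2 (-1.17 ± 0.16) and the tight junction protein Ocln (-1.05 ± 0.18) fell as well, whereas the desmosomal cadherin Dsg2 (0.77 ± 0.20) and the splicing regulator of epithelial cells Esrp1 (0.44 ± 0.15) rose. Of 6 tested genes of the mesenchymal transition 0 were called (limma), but 4 were higher without replicate 2 of the assembled part with BMP4. The list includes the filament protein Vim, at 10.3 and 14.02 FPKM in lone iPSC, 28.6 and 45.1 in lone iPSC with BMP4, 75.1 and 47.3 in the assembled part and 225 and 21.2 in the assembled part with BMP4 (1.58 ± 0.62, limma adjusted p = 0.0704), N-cadherin Cdh2 at a difference of 0.40 ± 0.56 and Snai1 at 0.17 ± 0.37. Without that library, Vim (2.37, limma adjusted p = 0.000613) and Cdh2 (1.04, limma adjusted p = 0.0357) were called higher, and quantile normalization and upper quartile rescaling also called Vim. In the basement membrane and its receptors, 5 of 17 rose and 2 fell. The laminin chain Lamc1 had 15.6, 13.97, 20.03 and 14.8 FPKM in the 4 assembled libraries and 6.97, 7.70, 3.59 and 5.88 in the 4 lone ones (1.31 ± 0.22, limma adjusted p = 0.00236). Its partner chain Lama5 (1.14 ± 0.28) and the laminin receptor subunit Itga6 (18.9 ± 4.32 FPKM against 6.34 ± 1.39, 1.43 ± 0.18) rose beside it, while the basement membrane protein Nid2 (-1.39 ± 0.17) and the laminin receptor Dag1 (-1.37 ± 0.21) fell.

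In the fit over all 8 libraries, stress, lipid and surface antigen lists lay closer to the background. Of 22 tested p53 targets and apoptosis genes, 9 fell and 2 rose (9 and 0 without replicate 2 of the assembled part with BMP4). Those that fell include the exonuclease Aen (-1.45 ± 0.20) and Bax at 219 ± 58.2 FPKM against 434 ± 29.9 (-1.02 ± 0.14, limma adjusted p = 0.00115). In the integrated stress response 7 of 21 fell and 1 rose, and 3 or 4 fell without replicate 2 of lone iPSC, replicate 1 of lone iPSC with BMP4 or either untreated assembled library. Its regulator Atf4 was not called (0.09 ± 0.17) and its effector Ddit3 was the 1 that rose (1.07 ± 0.35, limma adjusted p = 0.0393), a call lost in 5 of 8 fits without 1 library (limma adjusted p of up to 0.106). Of 24 genes of cholesterol and fatty acid synthesis, 6 fell and 4 rose, with Acly (-1.11 ± 0.15) and Sqle (-1.07 ± 0.15) lower and the fatty acid synthase Fasn higher (91.7 ± 15.4 FPKM against 49.02 ± 7.66, 0.89 ± 0.14, limma adjusted p = 0.00171). Among 16 interferon and antigen presentation genes 2 rose and 2 fell, but 9 rose and 3 fell without replicate 2 of the assembled part with BMP4. B2m, the light chain of class I antigens, rose, at 176, 171, 200.3 and 129.5 FPKM in the 4 assembled libraries and 91.6, 83.2, 76.7 and 85.2 in the 4 lone ones (0.99 ± 0.15, limma adjusted p = 0.00142). The interaction with lineage described below was called in 5 of these 16 genes, beside 4.41% of all genes tested, and the iPSC difference lay above the TSC difference in all 5. The median TSC difference of the list was -0.83. For B2m that interaction was not called (0.25, limma adjusted p = 0.617).

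Trophoblast genes were examined because the assembled part had been separated from TSC. Of 16 tested, 3 rose and 1 fell, with a median of 0.02. The lectin Lgals3, also made by other epithelia, had 4.28 and 3.60 FPKM in lone iPSC and 30.9 and 125 in lone iPSC with BMP4. Lgals3 had 150.2 and 285 FPKM in the assembled part and 1296 and 62.2 in the assembled part with BMP4, so that the arms overlapped (3.79 ± 0.96, limma adjusted p = 0.0137). Igf2, abundant in the libraries of TSC origin, was at most 6.46 FPKM in 3 of the 4 assembled libraries and was not called (1.68 ± 0.97). Placental Plac8 (31.99 ± 13.1 FPKM against 12.8 ± 1.35, 1.15 ± 0.27) was highest in the 2 untreated assembled libraries, in which Elf5 was at most 0.393 FPKM. Sprr2a2, of the small proline-rich family of stratified epithelia, ranged over 62.3 to 4737 FPKM in the assembled libraries and 1.10 to 819 in the lone ones (4.89 ± 1.69, limma adjusted p = 0.0458), and 6 of 8 fits without 1 library lost its call, with a limma adjusted p of up to 0.133.

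Whether the assembly difference itself depended on BMP4 was tested by the interaction in a fit of the 4 group means. It called 0 of 11207 genes (0%), although 729 passed without adjustment at a limma p under 0.05, and the lowest adjusted p was 0.677. Leaving out replicate 1 of the assembled part with BMP4 gave 18 calls, and leaving out replicate 1 of lone iPSC with BMP4 gave 2. The differences of T, Mixl1, Id1 and Bmp4 without and with BMP4, given above, were therefore not shown to differ from each other.

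Whether the difference was particular to cells of iPSC origin was tested against the 8 libraries of TSC origin, in a fit of 8 group means over all 16 libraries. The interaction was called in 494 genes (4.41%), in 110 of which the iPSC difference lay above the TSC difference and in 384 below. They include 350 of the 4353 genes called in iPSC, or 8.04%. Glycolysis held 9 of these genes among 23, all below: in TSC origin Pkm differed by 0.22 and Ldha by 0.22, and the interactions were -1.88 ± 0.30 (limma adjusted p = 0.00885) and -1.60 ± 0.22 (limma adjusted p = 0.00724). For Pdk1 the TSC difference was 0.72 and the interaction -3.10 ± 0.47 (limma adjusted p = 0.00758). Pou5f1 (-2.96 ± 0.63) and Dnmt3b (-3.02 ± 0.45, limma adjusted p = 0.00758) were also lower in iPSC relative to TSC, with TSC differences of 1.25 and 1.15. Pou5f1 was at most 1.03 FPKM in lone TSC and had little room to fall there. Its interaction therefore cannot show whether a fall is particular to iPSC. Of the assembled TSC part with BMP4, replicate 2 had Pou5f1 at 2.10 FPKM and Dppa5a at 43.5, and replicate 1 had 0.137 and 8.29. Replicate 1 of the untreated assembled TSC part had 2.33 and 8.73. These libraries stayed in the next fit. Replicate 2 of the untreated assembled TSC part held the most of both markers, with Pou5f1 at 13.2 FPKM and Dppa5a at 499, where lone TSC had at most 1.03 and 15.5. Without it the interaction was -2.43 for Pou5f1 (limma adjusted p = 0.0427) and -2.83 for Dnmt3b (limma adjusted p = 0.0194), and 270 genes were called in all. On the other side, Lgals1 differed by -0.86 in TSC (2.80 ± 0.39, limma adjusted p = 0.00724) and S100a6 by 0.98 (1.58 ± 0.38, limma adjusted p = 0.0352), whose call was lost without that TSC library (limma adjusted p = 0.0767). For Mcm3 (-0.75 ± 0.40, limma adjusted p = 0.267), Hsp90ab1 (-0.58 ± 0.30), Ly6a (1.30 ± 0.77, limma adjusted p = 0.325), Hk2 (0.29 ± 0.40) and Eomes (-1.19 ± 0.35) the interaction was not called, so that no difference between lineages was shown. Without replicate 2 of lone iPSC 82 genes were called, and without replicate 2 of the assembled part with BMP4 there were 917 calls.

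**Figure D5:**
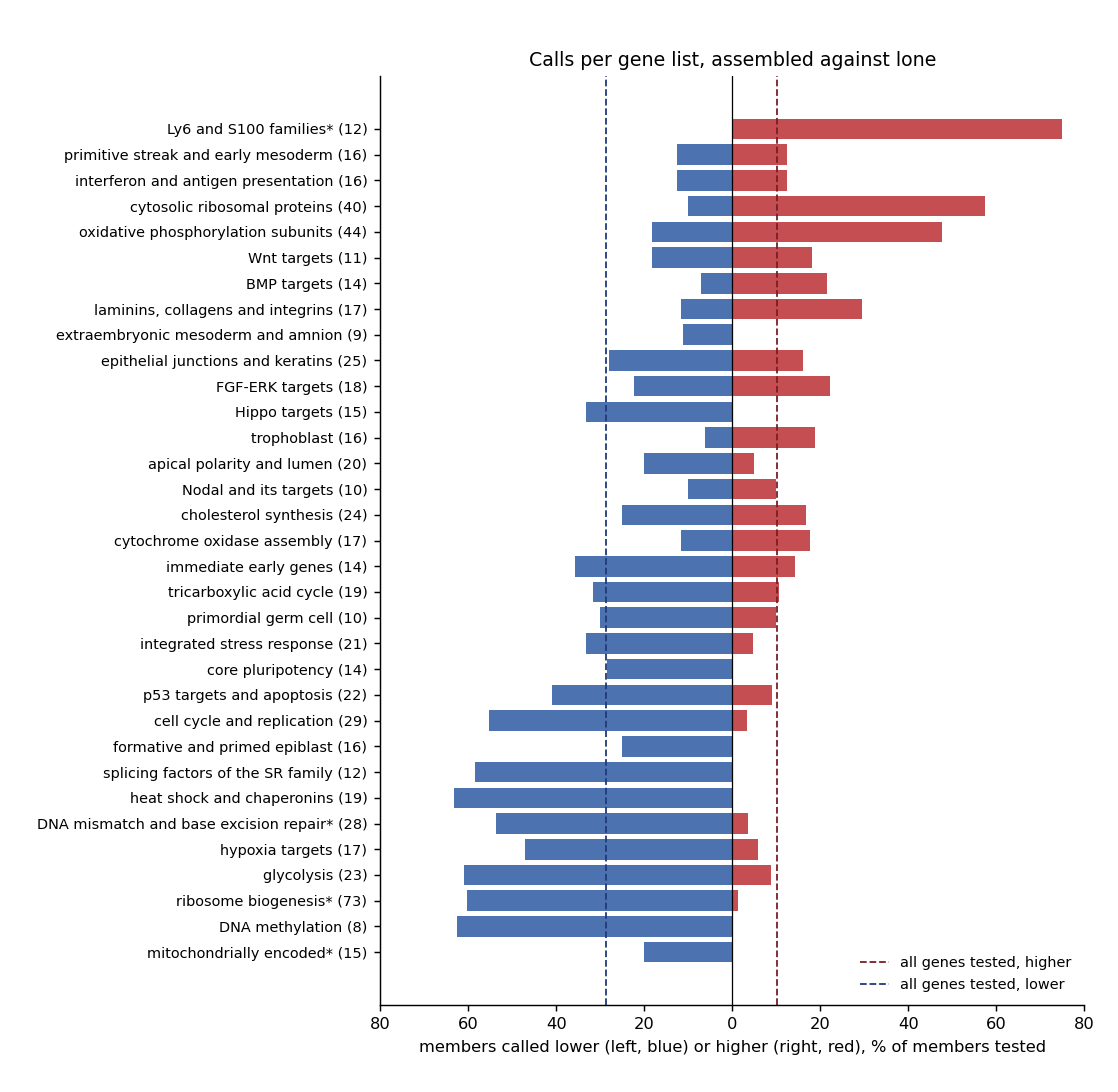
For each gene list with at least 8 tested members (number in brackets), the percentage of tested members called higher (red, right) or lower (blue, left) in the assembled part, ordered by the median difference. Dashed lines mark the share over all genes tested (10.1% higher, 28.8% lower), and an asterisk marks a list put together after the values were seen. Ly6 and S100 genes, ribosomal proteins and oxidative phosphorylation subunits exceed the line on the right, and glycolysis, ribosome biogenesis, chaperone and replication genes exceed it on the left.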

How the data were processed

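RNA of single colonies or colony parts was measured by Smart-seq2, per the labels. The deposited values are FPKM per gene symbol, made by the authors with CASAVA and TopHat2, and the builds mm9 and hg19 are named without roles, per the submitters' processing notes. FPKM hides the depth of each library, so that no counting error can be given. The table holds 31663 entries, and 11207 with at least 1 FPKM in at least 4 of the 8 iPSC-origin libraries were tested. Here log2(FPKM + 1) was fitted in limma 3.58.1 (R 4.3.3) with trend, on assembly and BMP4, with 5 residual degrees of freedom and Benjamini-Hochberg adjustment over all genes tested. Fold changes on this scale understate those of low genes. The BMP4 interaction used 4 group means, and the lineage interaction 8 group means of 16 libraries. The fit was tested on simulated data.

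Named genes were the 12 largest differences in each direction, with a call, no overlap, a mean of at least 5 FPKM in an arm and no predicted name, the 4 smallest p-values of each gene list, 6 per direction of each interaction or, where under 10 passed, the 10 smallest p-values, and a fixed set, 166 in all. A further 30 tested genes, the entries Gm16005 and Gm17122, and 4 gene lists were chosen after their values were seen. Members and lists were chosen with earlier results of these data known. A few genes are not reported here. Alternatives changed the pseudocount (0.1), the filter, the scaling, the model and the libraries. Leaving out entries near 0 throughout an arm and rescaling without mitochondrial and ribosomal protein genes were chosen after seeing the data. Transcript lengths came from GENCODE on GRCm38 and promoter windows from RefSeq on GRCm38.p6.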

Additional observations from a re-analysis of the deposited data

Results flagged for a closer look

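The assembly difference in iPSC was set against that in TSC by the interaction of the fit over all 16 libraries. Of the genes named here, 39 passed it (limma adjusted p under 0.05). Some of them were named for their rank in this interaction, and others were chosen after their values were seen. The count of 39 and its split by direction are therefore no measure of how often genes passed. Over all genes tested, 494 of 11207 passed (4.41%), with the iPSC difference above in 110 and below in 384. Values in brackets are the iPSC difference minus the TSC difference on the log2(FPKM + 1) scale. In 32 of the 39 named genes the iPSC difference was the lower. They include the glycolytic genes Pfkl (-2.01), Pkm (-1.88), Ldha (-1.60), Eno1 (-1.28), Pgk1 (-1.28), Pgam1 (-1.24), Gpi1 (-1.24) and Aldoa (-1.07) and the hypoxia targets Pdk1 (-3.10) and Plod2 (-1.64). Targets of FGF and ERK or of growth signals among them were Egr1 (-2.69), Dusp6 (-2.24), Spry4 (-1.86) and Ccnd1 (-2.65). In this order they differed by -1.29, -0.69, -0.98 and -0.96 in iPSC and by 1.40, 1.55, 0.87 and 1.69 in TSC. Much of their bracketed values thus came from rises in TSC. Genes of the pluripotent or formative state were Dnmt3b (-3.02), Pou5f1 (-2.96), Fgf5 (-2.32) and Tcf15 (-1.56). Further genes on this side were Hes1 (-3.12), Dab1 (-3.04), Mgarp (-3.03), Ece1 (-2.99), Srsf2 (-2.65) and Nid2 (-2.42), and Wnt8a (-2.26), Epha1 (-2.07), Lyar (-1.64), Ddx4 (-1.31), Doc2a (-1.23), Rrn3 (-1.10) and Srsf10 (-0.80). Of these, Hes1 differed by -0.80 in iPSC and by 2.32 in TSC. The entry Gm15536 (-11.29) is listed at 0 in all assembled iPSC libraries, and its value is no measure of a fold. In TSC it ranged from 0 to 1406 FPKM in lone libraries and from 0 to 1069 in assembled ones. Pou5f1 had little room to fall in TSC, because lone TSC held at most 1.03 FPKM. Assembled TSC libraries had Pou5f1 at 0.137 to 2.33 FPKM, apart from replicate 2 of the untreated part. Replicate 2 of the untreated assembled TSC part held pluripotency markers (Pou5f1 at 13.2 FPKM against at most 1.03 in lone TSC). Without it 32 of the 39 genes kept the call, Pou5f1 among them (-2.43), and without it and the iPSC library with Elf5 34 did.

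In 7 genes the iPSC difference was the higher, namely S100a6 (1.58), Gata3 (2.16), Zfp36l3 (2.42), Lgals1 (2.80), Krt8 (3.33), Mbnl3 (3.65) and Lgals3 (5.36). Several of them are genes of trophoblast or other epithelia with a negative difference in TSC: the TSC differences were -1.57 for Lgals3 and -3.07 for Krt8. Mbnl3 differed by 0.29 in iPSC and -3.36 in TSC, and Zfp36l3 by 0.59 in iPSC and -1.82 in TSC. Replicate 2 of the assembled part with BMP4, which held Elf5, is among the iPSC libraries of these values, and without it the interaction was called in 917 genes. Lgals1 kept its call without both libraries (2.87), and S100a6 lost it (1.58, limma adjusted p = 0.0640).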

How the results depend on the processing

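Of 156 named genes that were called, 128 kept the call in all 8 fits that left out 1 library, 28 lost it in at least 1 of them, 36 lost it under at least 1 of 3 other scalings, and 0 changed sign in any alternative run. The genes higher or lower were 1842 and 1904 after quantile normalization, and 1715 were lower after upper quartile rescaling. A test against a 2-fold change called 5 genes, 2 higher and 3 lower, and the 4 BMP4 libraries alone called 2, 1 higher and 1 lower. Leaving out 1 library gave 3014 to 4750 calls, with 694 to 1300 higher and 2320 to 3450 lower; the fewest higher calls, 694 and 727, came without replicate 2 of lone iPSC and without replicate 1 of lone iPSC with BMP4. The cause was not tested. With BMP4 left out of the fit 14 named genes lost their calls, Fgf5, Evx1 and Id2 among them.

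For the BMP4 interaction, no filter gave 2 calls, a filter on 2 of 16 libraries 3, and leaving out 1 library 0 to 18. For the lineage interaction, quantile normalization gave 248 genes above and 210 below, and upper quartile rescaling 283 in all with 68 above and 215 below. Leaving out both libraries with genes of the other lineage gave 207 above. Leaving out 1 library gave 82 to 917 calls, with 9 to 204 above and 73 to 713 below. Cuedc1 turned negative in the untreated libraries alone (-1.15, limma adjusted p = 0.0193).

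The replicate block gave 4082 assembly calls, 1014 higher and 3068 lower, and 98 genes above and 329 below in the lineage interaction. Same-numbered libraries deviated with correlations from -0.24 to 0.17, and the numbers are not taken as pairs. Depth is unknown, so no floor can be set for entries listed at 0.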

Other observations

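Apical polarity, growth control and early response genes are given here as values. The counts are to be read beside the shares over all genes tested, 10.1% higher and 28.8% lower. Of 20 tested polarity and lumen genes 1 rose and 4 fell, with the scaffold Dlg1 higher at 8.50 ± 1.24 FPKM against 4.26 ± 0.857 (0.86 ± 0.19, limma adjusted p = 0.00733) and the ezrin-binding protein Slc9a3r1 lower at 46.6 ± 12.9 FPKM against 98.6 ± 8.37 (-1.10 ± 0.15, limma adjusted p = 0.000996). After quantile normalization 5 rose and 1 fell. Of 15 Hippo targets 0 rose and 5 fell, among them the transcription factor Tead2 (-0.84 ± 0.17, limma adjusted p = 0.00512), while quantile normalization gave 2 and 2, and 3 fell without replicate 1 of lone iPSC or replicate 1 of the untreated assembled part. Of 14 immediate early genes 2 rose and 5 fell, and 0 and 6 without replicate 2 of the assembled part with BMP4. Ier2 stood at 121 and 95.4 FPKM in lone iPSC, 96.6 and 76.7 in lone iPSC with BMP4, 24.05 and 18.2 in the assembled part and 42.0 and 36.8 in the assembled part with BMP4 (-1.71 ± 0.25, limma adjusted p = 0.00126). Of 10 tested germ cell genes 1 rose and 3 fell, near the shares over all genes. The 2 tested Hox genes were not called.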
